A study of Danio rerio with 6 samples.

Results

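Reactive oxygen production and removal was followed through 3 genes of zebrafish larvae, duox, sod1 and cat, chosen by their gene symbols from the 31388 genes in the count table. The samples were 3 pools of fdx1b-/- larvae (fdx1b mutants) and 3 pools of their siblings, each pool holding 20 whole larvae collected at 5 days post fertilisation (120 h) and at Zeitgeber time 3 h, that is 3 h after lights on. The gene fdx1b encodes the ferredoxin that passes electrons to mitochondrial enzymes of steroid synthesis, and larvae without it lack normal cortisol production. The mutants were picked by eye for their failure to adapt their pigmentation to a light background, and the labels give no genotype for the siblings, which the study calls wild-type. The labels name no drug for either group, and no level of fdx1b was used here to check them. Library names of both groups carry the tag CTR, which the paper uses elsewhere for its vehicle control beside dexamethasone. Whether these larvae received vehicle is not stated.

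Reactive oxygen species are made on purpose as well as by accident. Dual oxidase, the product of duox, is a membrane enzyme of the NADPH oxidase family that releases hydrogen peroxide to the outside of epithelial cells, and in zebrafish it is known for the peroxide gradient at wounds and for the peroxide used in thyroid hormone synthesis. Superoxide dismutase 1, encoded by sod1, is the copper and zinc enzyme of the cytosol that turns superoxide into hydrogen peroxide and oxygen, and catalase, encoded by cat, is the haem enzyme of peroxisomes that breaks hydrogen peroxide down to water and oxygen.

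In the fdx1b mutants duox was 2.11-fold higher than in the siblings, whereas the estimates for sod1 and cat were 1.18-fold and 1.13-fold higher and did not pass the test. The test was the quasi-likelihood F test of edgeR across 26544 genes with Benjamini-Hochberg adjustment, and a gene was called changed when its adjusted p-value was 0.01 or less and its log2 fold change was 0.25 or more in size. Thus 1 of the 3 genes was called higher, where 0.618% of all tested genes were called higher, 0.497% lower and 1.12% in either direction. For all 3 genes the 3 mutant pools lay above the 3 sibling pools, a pattern shown by 12.9% of tested genes. At an unadjusted p-value of 0.05 or less all 3 genes were higher, as were 9.21% of tested genes. At an adjusted p-value of 0.05 or less duox alone was higher, as were 1.94% of tested genes, with 3.89% in either direction. All 3 genes also appear among 1999 named in a table of the paper ordered by p-value. Their choice was thus not independent of these outcomes, and the shares of all tested genes are no test of them. The levels describe whole larvae, in which more cells of a type and more RNA per cell cannot be told apart.

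The libraries held 37099965, 40765917 and 43594050 exonic reads in mutant replicates 1, 2 and 3, and 49908095, 18247332 and 40059199 in sibling replicates 1, 2 and 3. Sibling replicate 2 was therefore the smallest library. A gene with 3 reads, the smallest number taken as detectable, stood at between 0.0598 and 0.165 CPM (the read count scaled to the size of its library), and all 3 genes were far above this floor in every library. Over all genes tested the log2 fold change had a median of -0.003, close to 0.

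The dual oxidase gene duox was the least abundant of the 3. The identifier of duox was ENSDARG00000062632, with 5074 bases of exon, on chromosome 25 of the RefSeq assembly GRCz12tu. Its read counts were 178, 211 and 246 in the mutant pools and 119, 58 and 84 in the sibling pools. Scaled to library size these were 4.84, 5.15 and 5.62 CPM in the mutants, against 2.37, 3.20 and 2.1 CPM in the siblings. Each mutant pool was above each sibling pool, and the sibling pools were spread more widely, with a coefficient of variation of 22.3% against 7.55% among the mutant pools, which stood closer together. The highest sibling value was that of replicate 2 and rested on 58 reads, with an exact Poisson 95% interval of 2.43 to 4.13 CPM, whereas the lowest mutant value, that of replicate 1, had an interval of 4.16 to 5.61 CPM. These intervals, which cover counting error only, did not overlap.

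The mean level of duox was 5.21 ± 0.393 CPM in fdx1b mutants and 2.56 ± 0.570 CPM in siblings (SD, n = 3 each). The log2 fold change was 1.08 ± 0.15 (SE), the 95% confidence interval of the fold change ran from 1.68 to 2.65, and the adjusted p-value of edgeR was 0.0026. By p-value duox was gene 155 of the 26544 tested, and its log2 fold change was above that of 99.8% of them. The call did not hold in every fit. When each library was left out in turn, the log2 fold change of duox stayed between 0.96 and 1.21 and the adjusted p-value between 0.000151 and 0.0269, so that the call at 0.01 held in 2 of 6 fits and a looser limit of 0.05 in all 6. The call was lost without mutant replicate 1 (adjusted p 0.0126 by edgeR), mutant replicate 2 (0.017), mutant replicate 3 (0.0269) or sibling replicate 1 (0.0268), and also when all libraries were thinned to the smallest one (log2 fold change 1.05, adjusted p 0.0124). Without sibling replicate 2, the shallow library, duox gave a log2 fold change of 1.21 (adjusted p 0.000151 by edgeR).

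**Figure D1:**
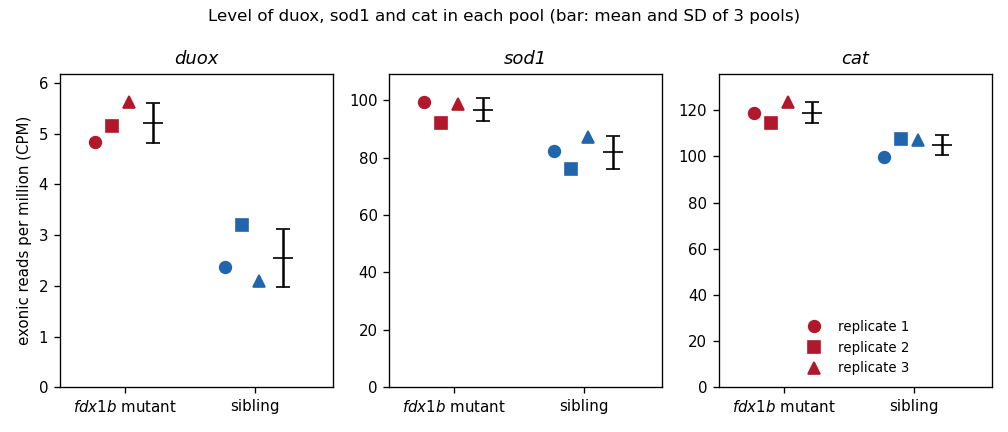
Exonic reads scaled to library size (CPM, vertical axis from 0) of duox, sod1 and cat in the 3 fdx1b mutant pools (red, left) and the 3 sibling pools (blue, right), with replicates 1, 2 and 3 as circle, square and triangle and the mean ± SD in black. The mutant pools of duox lie at 4.84 to 5.62 CPM, above the sibling pools at 2.1 to 3.20 CPM, while for sod1 and cat the gap between the genotypes is small beside the level.

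The superoxide-removing enzyme sod1 (ENSDARG00000043848, 1245 bases of exon, chromosome 10 of GRCz12tu) had 3648, 3771 and 4317 reads in the mutant pools and 4134, 1376 and 3476 reads in the sibling pools. Scaled to library size, sod1 stood at 99.3, 92.0 and 98.7 CPM in the mutants, against 82.4, 75.8 and 87.0 CPM in the siblings. The groups did not overlap, the nearest pair being mutant replicate 2 and sibling replicate 3, and the lowest value was that of the shallow sibling library. The means were 96.7 ± 4.08 CPM in mutants and 81.8 ± 5.61 CPM in siblings (SD, n = 3 each). The log2 fold change was 0.24 ± 0.06 (SE), with a 95% confidence interval of the fold change from 1.08 to 1.29, and the adjusted p-value of edgeR was 0.0524. Thus sod1 missed both the limit on the adjusted p-value and the limit on the fold change, and even the upper end of its interval was below the 1.68-fold lower end for duox. Its adjusted p-value fell on either side of 0.05 with the processing: it was 0.0145 by the Wald test of DESeq2, and it ran from 0.02 without sibling replicate 3 to 0.202 without mutant replicate 1.

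For catalase the estimated difference was small too. The gene cat (ENSDARG00000104702, 2305 bases of exon) lies on chromosome 25 of GRCz12tu, as duox does. Its reads numbered 4358, 4690 and 5400 in the mutant pools and 5010, 1950 and 4277 in the sibling pools, which is 119, 114 and 123 CPM in the mutants, against 99.9, 107 and 107 CPM in the siblings. The mutant pools were again above the sibling pools, with mutant replicate 2 nearest to them. The means were 119 ± 4.55 CPM in mutants and 105 ± 4.27 CPM in siblings (SD, n = 3 each). The log2 fold change of cat was 0.18 ± 0.058 (SE), the 95% confidence interval of the fold change ran from 1.04 to 1.24, and the adjusted p-value of edgeR was 0.111. In leave-one-out fits the log2 fold change of cat ran from 0.15 to 0.22 and the adjusted p-value of edgeR was never below 0.0728.

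**Figure D2:**
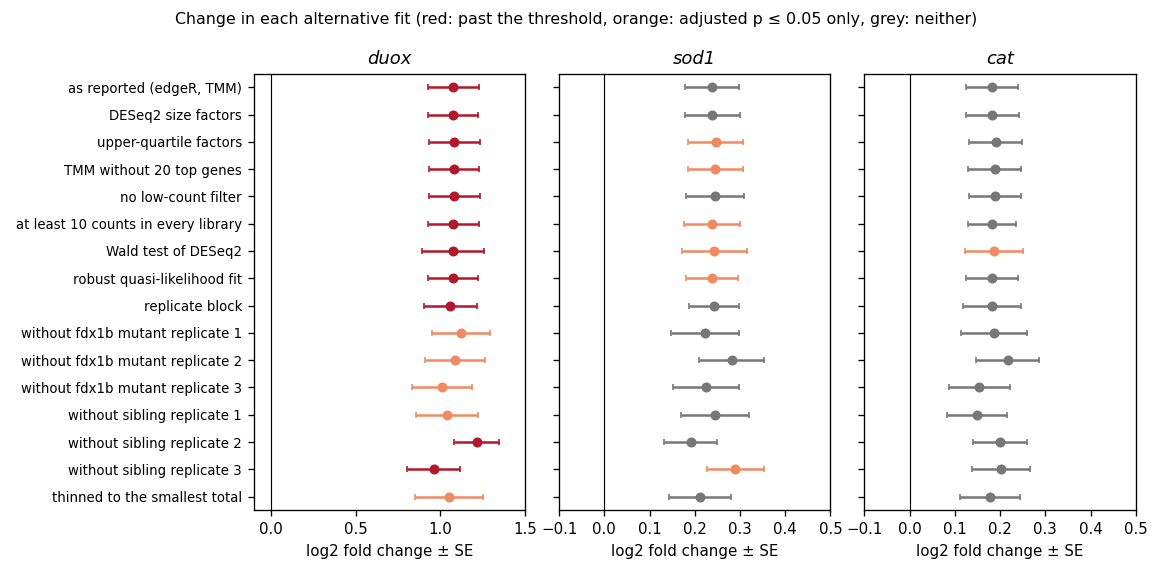
Log2 fold change of mutant over sibling ± SE (horizontal axis, with its own range for duox) for duox, sod1 and cat, in the reported fit (top) and in each alternative fit below it. Every estimate lies above 0, duox stays between 0.96 and 1.21, and its colour shows that the call at an adjusted p-value of 0.01 (red) is reduced to one at 0.05 (orange) in 4 of the 6 leave-one-out fits and after thinning.

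To compare levels between the genes, counts were divided by exon length (RPKM, the CPM per kilobase of exon). The order was the same in every library, sod1 first, then cat, then duox far below. In RPKM, sod1 averaged 77.6 ± 3.27 in mutants and 65.7 ± 4.51 in siblings, cat 51.6 ± 1.97 in mutants and 45.5 ± 1.85 in siblings, and duox 1.03 ± 0.0775 in mutants and 0.504 ± 0.112 in siblings (SD, n = 3 each). Neighbours in this order were separated by more than their spread. By RPKM, sod1 was above 96.9% of tested genes, cat above 95.5% and duox above 17%. Transcripts of sod1 and cat thus exceeded those of duox in both genotypes. Per length, sod1 was 75.7 times duox in mutants and 130.0 times in siblings, and cat was 50.2 times duox in mutants and 90.2 times in siblings.

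Whether the 3 genes differed in their change was asked with ratios of counts per kilobase inside each library, which need no scaling between libraries. The log2 ratio of duox to sod1 was -6.38, -6.19 and -6.16 in the mutants and -7.15, -6.60 and -7.40 in the siblings. The groups did not overlap, and the mutant mean was 0.80 higher on the log2 scale, or 1.74-fold. For duox to cat the log2 ratio was -5.75, -5.61 and -5.60 in the mutants and -6.53, -6.21 and -6.81 in the siblings, again without overlap, a difference of 0.86 or 1.82-fold. The log2 ratio of sod1 to cat was 0.63, 0.57 and 0.57 in the mutants and 0.61, 0.39 and 0.59 in the siblings. These groups overlapped, with only sibling replicate 2 lower than the other libraries, and the difference was 0.06 or 1.04-fold. The exact two-sided permutation test of 3 against 3 pools cannot give less than p = 0.1, so none of the 3 comparisons could reach 0.05. It gave p = 0.1 for both ratios with duox (0.15 after Benjamini-Hochberg adjustment over the 3 ratios) and p = 0.7 for sod1 to cat (0.7 adjusted), by exact permutation. Without sibling replicate 2 the difference in the ratio of sod1 to cat was -0.01.

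**Figure D3:**
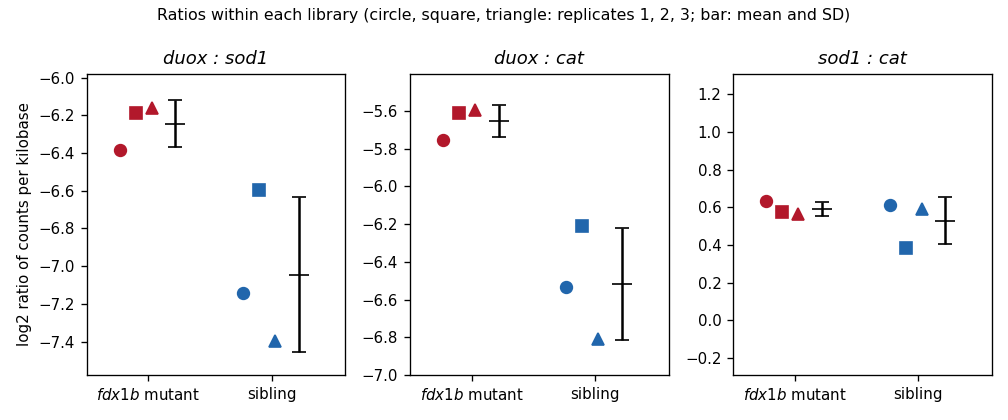
Log2 ratio of counts per kilobase within each library (vertical axis, the same span of units in each panel) for duox to sod1, duox to cat and sod1 to cat, with mutant pools in red on the left and sibling pools in blue on the right, and the mean ± SD in black. Both ratios with duox are higher in all 3 mutant pools, and the ratio of sod1 to cat overlaps between the genotypes, at 0.57 to 0.63 in mutants and 0.39 to 0.61 in siblings.

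The wider pathway was read from 7 lists of genes, in which 81 of 91 listed symbols matched 83 identifiers, all of them tested. The lists covered NADPH oxidases, superoxide dismutases with copper supply, other peroxide-producing oxidases and peroxide removal. They also covered the transcription factor Nrf2 with its known targets, peroxisomes and thyroid hormone synthesis. Not all of these genes make or remove reactive oxygen, so the counts below are not of such genes alone. Symbols in capitals are those that the name table gives for the zebrafish identifiers. At the main threshold 3 of the 83 genes, msrb2, qsox1 and tg, were higher in the mutants and 0 were lower. Of all tested genes 0.618% were called higher and 0.497% lower. The same threshold with the Wald test of DESeq2 called 8 of the 83 higher and 0 lower. In that fit 440 genes of the whole count table were called higher and 445 lower. At the looser limit, an adjusted p-value of 0.05 or less by edgeR, 8 were higher and 0 lower, where 1.94% of all tested genes were higher and 1.95% lower. The log2 fold change was above 0 for 58 of the 83 genes, against 49.3% of all tested genes, and its median was 0.11 in the lists and -0.003 over all genes tested. The 3 mutant pools lay above the 3 sibling pools for 29 of the 83 genes and below them for 8, patterns shown by 12.9% and 13% of tested genes. The number passing at 0.05 depended on the libraries. In leave-one-out fits between 3 and 12 genes were higher and between 0 and 4 lower, while between 0.665% and 3.55% of all tested genes were higher and between 0.473% and 4.26% lower in those fits, and only msrb2, qsox1 and tg passed in all 6 such fits.

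Among producers of superoxide and hydrogen peroxide other than duox, the NADPH oxidases and their partners gave no call. This list held 12 matched genes with a median log2 fold change of 0.11. All mutant pools lay above all sibling pools for 3 of the 12 (cyba, rac2 and DUOXA1) and below for 2 (nox1 and noxa1). These patterns were shown by 12.9% and 13% of tested genes. The catalytic subunits cybb, nox1 and NOX5 had log2 fold changes of 0.01, -0.22 and 0.11. The membrane partner cyba had 10.8, 11.4 and 11.3 CPM in mutants, against 10.3, 8.32 and 10.4 CPM in siblings (log2 fold change 0.19, adjusted p 0.295 by edgeR), and the small GTPase rac2, an activator of the phagocyte oxidase, had a log2 fold change of 0.22 (adjusted p 0.229). The activator noxa1 had the lowest estimate, -0.70 with an adjusted p-value of 0.149 by edgeR, and rested on 20 to 43 reads per library. The maturation factor that dual oxidases need to reach the cell surface, DUOXA1, was barely detected, with 0.517, 0.561 and 0.526 CPM in mutants against 0.479, 0.165 and 0.325 CPM in siblings. Its pools did not overlap, but sibling replicate 2 held only 3 reads, and the log2 fold change of 0.58 ± 0.334 (SE) had an adjusted p-value of 0.37 by edgeR.

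Thyroid hormone synthesis is a known use of dual oxidase, and its protein precursor was also called higher. Thyroglobulin, tg, stood at 66.3, 63.2 and 66.8 CPM in mutants, against 48.8, 44.9 and 46.2 CPM in siblings. All mutant pools were well above all sibling pools, and the log2 fold change was 0.49 ± 0.053 (SE) with an adjusted p-value of 0.000569 by edgeR. The other 4 matched genes of this list did not pass: the iodide transporter slc5a5 had a log2 fold change of 0.09, the transcription factor PAX8 0.07, the thyrotropin receptor TSHR -0.20 and the iodotyrosine deiodinase IYD 0.21. As markers of thyroid follicle cells, tg and slc5a5 together summed to 64.3 to 67.7 CPM in mutants and 45.8 to 49.5 CPM in siblings, nearly all of it tg. Dual oxidases are also known in the epithelium of enterocytes. The 6 enterocyte markers summed to 968.9 to 1052 CPM in mutants and 910.6 to 1027 CPM in siblings, with overlap. Across the libraries fabp2 alone made 485.9 to 581.1 CPM of this. Of the 6, 4 had estimates above 0 and 2 below, with a median of 0.09. All mutant pools lay above all sibling pools for 3 and below for 1, patterns shown by 12.9% and 13% of tested genes. Here mogat3b was called higher (log2 fold change 0.43) and tmigd1 was lower at 0.05 (-0.40). For the calls of this paragraph, the shares of all tested genes were 0.618% called higher and 1.95% lower at 0.05. The skin ionocyte marker foxi3b stood at 9.24 to 10.5 CPM in mutants and 8.24 to 8.71 CPM in siblings and was not called. The part of these cell types in the level of duox was not tested.

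Oxidases that release hydrogen peroxide as a by-product included a further call. The sulfhydryl oxidase qsox1, which forms disulfide bonds in secreted proteins, had 38.3, 39.3 and 42.3 CPM in mutants, against 25.9, 28.7 and 26.6 CPM in siblings. The groups were far apart, with a log2 fold change of 0.57 ± 0.063 (SE) and an adjusted p-value of 0.000569 by edgeR. Pipecolic acid oxidase, pipox, an enzyme of peroxisomes, was higher at the 0.05 limit only (log2 fold change 0.39, adjusted p 0.0246). Of the other 6 in this list none passed, among them urate oxidase uox at 0.18, the glycolate oxidase HAO1 at 0.24, xanthine dehydrogenase XDH at 0.08 and the D-amino acid oxidase dao.2 at -0.35 (adjusted p 0.056). The median log2 fold change of these 8 genes was 0.13. Of all tested genes 0.618% were called higher and 1.94% were higher at 0.05. All mutant pools lay above all sibling pools for 4 of the 8 and below for 1, patterns shown by 12.9% and 13% of tested genes.

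For the other superoxide dismutases and their copper supply none of 8 matched genes was called, and the median log2 fold change was 0.13. At the 0.05 limit 1 of the 8 was higher. Among all tested genes 0.618% were called higher and 1.94% were higher at 0.05. All mutant pools lay above all sibling pools for 4 of the 8 and below for 0, patterns shown by 12.9% and 13% of tested genes. The mitochondrial manganese enzyme SOD2 had 42.7, 44.6 and 44.5 CPM in mutants, against 40.1, 37.2 and 40.7 CPM in siblings, which did not overlap (log2 fold change 0.15, adjusted p 0.148 by edgeR). The extracellular enzyme was represented by a pair of identifiers with opposite estimates, SOD3 ENSDARG00000070168 at 0.37 and SOD3 ENSDARG00000079183 at -0.20, and neither passed. The groups did not overlap for the first and overlapped for the second. CCS, the chaperone that loads copper into superoxide dismutase 1, had a log2 fold change of -0.01. The copper carriers atox1, SLC31A1 and atp7a had 0.32, 0.11 and 0.01. Only commd1, a regulator of copper transport that in human cells also binds superoxide dismutase 1, was higher at the 0.05 limit (log2 fold change 0.25, adjusted p 0.0453 by edgeR), and it passed that limit in 1 of 6 leave-one-out fits. The exon length given for commd1 was 18363 bases, and whether all reads counted there come from its transcripts was not tested.

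Beside catalase, peroxide is removed by glutathione peroxidases and peroxiredoxins, and oxidised methionine is repaired by methionine sulfoxide reductases. Of 29 matched genes in this list 1 was called, 3 were higher at the 0.05 limit and 0 were lower, with a median log2 fold change of 0.12. The shares of all tested genes were 0.618% called higher, 1.94% higher at 0.05 and 1.95% lower at 0.05. For 9 of the 29 all mutant pools lay above all sibling pools and for 2 below, patterns shown by 12.9% and 13% of tested genes. The call was msrb2, a mitochondrial methionine sulfoxide reductase in mammals, with 18.8, 19.3 and 19.5 CPM in mutants, against 9.19, 9.87 and 10.1 CPM in siblings. No pool came near the other group, and the log2 fold change was 0.99 ± 0.074 (SE) with an adjusted p-value of 4e-05 by edgeR. Its relatives msrb1a and MSRB3 had log2 fold changes of -0.21 and -0.07, neither passing. Higher at the 0.05 limit only were gpx4b, one of the zebrafish copies of the peroxidase that acts on lipid peroxides (0.27, adjusted p 0.0444), and sesn3, a sestrin (0.25, adjusted p 0.0285). The other copy of that peroxidase, gpx4a, had a log2 fold change of 0.01. The 6 matched peroxiredoxin genes all had estimates between 0.08 (prdx1) and 0.17 (PRDX3) and none passed.

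The transcription factor Nrf2 and the genes it is known to control in other settings gave no call among 13 matched genes in the reported fit, with a median log2 fold change of 0.11. The Nrf2 genes NFE2L2 and nfe2l2b had 0.05 and 0.36, and the inhibitors keap1a and KEAP1 had -0.21 (adjusted p 0.0557) and -0.25 (adjusted p 0.504). The estimates of the known targets lay on both sides of 0. Those of fth1a, gclm, pgd and GCLC (0.11, not passing) were above 0, with all mutant pools above all sibling pools. Those of nqo1 and HMOX1 were below 0, and their groups overlapped. In this list all mutant pools lay below all sibling pools for keap1a and for bach1b (-0.17, adjusted p 0.114 by edgeR). Of all tested genes 12.9% had all mutant pools above and 13% had them below, and 1.94% were higher at 0.05. The ferritin heavy chain fth1a, which stores iron, was higher at the 0.05 limit (log2 fold change 0.37, adjusted p 0.0102 by edgeR), just short of a call, gclm and pgd had 0.29 and 0.21 without passing, nqo1 had -0.04 and HMOX1, haem oxygenase, -0.40 (adjusted p 0.116). With all libraries kept, fth1a was called higher in 6 of 9 alternative fits, where its adjusted p-value ran from 1.95e-07 by DESeq2 to 0.0202 with the replicate number as a block by edgeR, and with a library left out it was called in 2 of 6 fits and did not pass 0.05 in the other 4. HMOX1 stood at 6.61, 6.90 and 6.49 CPM in mutants, against 8.91, 6.67 and 10.3 CPM in siblings, where replicate 2 lay among the mutant values. Without that shallow library HMOX1 was called lower (log2 fold change -0.52, adjusted p 0.00817 by edgeR), and keap1a, dao.2 and msrb1a were lower at the 0.05 limit. In the same fit fth1a was called higher (0.34, adjusted p 0.00318), as were msrb2, qsox1 and tg, and 8 pathway genes were higher at 0.05 against 4 lower, where 2.52% of all tested genes were higher and 2.65% lower.

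**Figure D4:**
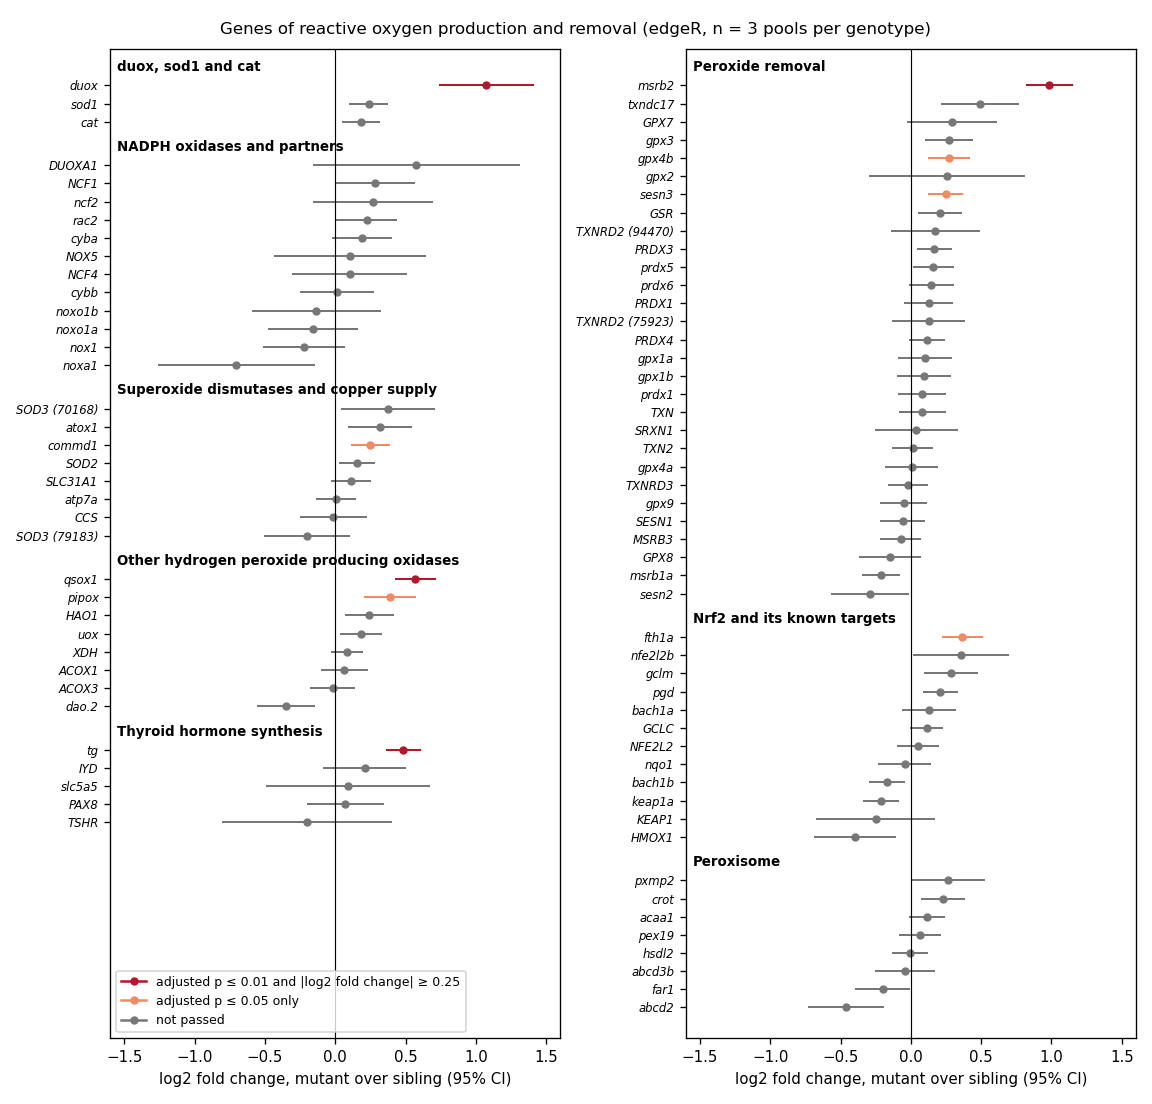
Log2 fold change of mutant over sibling with its 95% confidence interval (horizontal axis) for duox, sod1, cat and the genes of the 7 pathway lists that are reported here, sorted within each list, where a symbol with more than 1 identifier carries the last digits of the identifier. Red marks duox, msrb2, qsox1 and tg, orange marks 5 genes that pass at 0.05 only, and the genes in grey pass neither limit.

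Catalase works in peroxisomes and is abundant in liver, so peroxisomal and liver genes were read beside it. The 8 peroxisomal genes had a median log2 fold change of 0.03, 4 above and 4 below 0, and none passed. Their estimates ran from -0.46 for abcd2, a transporter of very long chain fatty acids (adjusted p 0.054 by edgeR), to 0.26 for the membrane channel pxmp2. Hepatocyte markers, 8 symbols matched to 10 identifiers of which 3 share the name cpn1, summed to 641.6 to 679.8 CPM in mutants and 569.5 to 594.1 CPM in siblings, without overlap. Of these 10, 8 had estimates above 0 and 2 below, and the median was 0.11. Here ambp was called higher (log2 fold change 0.56) and masp2 was higher at 0.05 (0.46). All mutant pools lay above all sibling pools for 6 of the 10 and below for 0, patterns shown by 12.9% and 13% of tested genes. Of all tested genes 49.3% had estimates above 0, 0.618% were called higher and 1.94% were higher at 0.05. The part of hepatocytes in the level of cat, whose estimate was 0.18, was not tested. Leukocyte markers summed to 34.8 to 34.9 CPM in mutants and 34.6 to 35.3 CPM in siblings, and erythroid markers to 137.6 to 142.2 CPM in mutants and 133.4 to 137.4 CPM in siblings, with hmbsa, an enzyme of haem synthesis, called higher (log2 fold change 0.48). The erythroid list was mixed, with 4 of its 6 genes above 0 and 2 below, among them fech, the last enzyme of haem synthesis, at -0.20 (adjusted p 0.165 by edgeR), and a median of 0.08. Of the 6 leukocyte markers 2 were above 0 and 4 below, with a median of -0.03 and no call. No marker of any of these cell types was at 0 reads in any library.

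Of the 6 neighbours of the 3 genes on their chromosomes, taken only as an order of genes from RefSeq GRCz12tu, 3 had values and none of these passed the test. After duox came tjp1b, a tight junction gene, with 33.7, 29.6 and 31.3 CPM in mutants, against 39.9, 50.8 and 34.0 CPM in siblings (log2 fold change -0.38, adjusted p 0.0929 by edgeR). Thus the gene beside duox had an estimate in the other direction. Before duox lay its paralog duox2, for which no identifier was matched and no value is given. The genes beside cat, syt12 and ifitm5, had log2 fold changes of -0.07 and -0.15. On either side of sod1, tiam1a and scaf4a were not matched to an identifier and were not tested. No RefSeq gene overlapped duox, sod1 or cat, and no other gene in the count table had the same counts as any of them.

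Among 1971 tested genes named independently of their p-value, those with log2 CPM most alike to each of the 3 genes were noted by Pearson's r. The 6 libraries differ in genotype and depth, so a difference between the genotypes by itself raises r. These values are a description only. The closest to duox were rbl1 (r = 0.983), a pocket protein of the cell cycle, arhgef6 (0.964) and stx2a (0.959), a syntaxin. The closest to sod1 were ruvbl1 (0.986), an ATPase of chromatin complexes, snx10a (0.983), a sorting nexin, and tex9 (0.981). The closest to cat were cep57l1 (0.979), the connexin cx28.6 (0.974) and the amino acid transporter slc1a4 (0.959). A high r did not mean a change of like size. The gene rbl1 stood at 16.4, 16.7 and 16.6 CPM in mutants, against 15.0, 15.2 and 14.4 CPM in siblings. Its log2 fold change was 0.16, where duox had 1.08.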

How the data were processed

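Total RNA of whole larvae was depleted of ribosomal RNA and sequenced in a strand-aware way as single-end reads of 50 bases. The deposited values are raw counts: the authors mapped reads onto GRCz10 with STAR (version 2.4.0i in the submitters' processing notes) and used their own script to count, gene by gene, the exonic reads with a single place in the genome (Ensembl genes). Whether strand was used in counting is not given in the sources used here, so overlapping genes cannot be told apart. Exon lengths are the authors' values. The deposited intronic counts were not used here.

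Genes were named from a gene name table, which paired 25925 of 31388 identifiers with a symbol, and from the paper's supplementary gene tables. The analysis ran in edgeR 4.0.16 (with limma 3.58.1, under R 4.3.3): TMM scaling, filterByExpr (26544 genes kept), quasi-likelihood F test of 3 mutant against 3 sibling pools without covariates, Benjamini-Hochberg adjustment over all genes tested, and the study's threshold. Each SE was the log2 fold change over the root of its F value. CPM and RPKM used TMM-scaled totals, and log2 CPM a prior count of 2. The study describes the pools as biological replicates. Whether they came from separate spawnings is not given in the sources used here. The p-values of edgeR set the genotype difference against the variation between pools, estimated for each gene with information shared across genes. The code was tested on simulated data.

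The text names duox, sod1 and cat, genes of the pathway lists, up to 4 genes of each marker list (those past a threshold first), the neighbours, and for each of the 3 genes the 3 most alike in log2 CPM. Members and lists were chosen with earlier results of these data known, and all 3 genes appear in a table of the paper ordered by p-value, so their choice was not independent of their p-values. The pathway genes matched through that table alone were dao.2 and msrb1a, which passed no limit in the reported fit. Without them the lists held 81 genes, and the counts of 3 and 8 higher could not change. The 8 higher genes appear in that table too, so the smaller lists do not show that the counts are free of this choice.

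Alternatives were the size factors of DESeq2 1.42.0, upper-quartile factors, TMM without the 20 genes with most reads, the Wald test of DESeq2, the robust edgeR fit, a filter of 10 counts in every library or none, replicate number as a block, libraries thinned to the smallest total, a threshold of 0.05 alone, and each library left out. Counts of the pathway lists under each alternative were added after seeing the data. No promoter motif was searched. The value of 1 gene of the pathway lists is not reported here, and that gene stays in the counts and medians.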

Additional observations from a re-analysis of the deposited data

How the results depend on the processing

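The 3 genes kept their direction, with log2 fold changes above 0, in every alternative fit. For duox the estimate ran from 1.05 to 1.08 over the 9 alternatives that kept all libraries and from 0.961 to 1.214 when a library was left out, and its call was lost after thinning (1.052, adjusted p 0.0124) and in 4 of 6 leave-one-out fits. The estimate for sod1 ran from 0.21 to 0.25 with all libraries, with an adjusted p-value of at most 0.05 in 5 of the 9, and that for cat from 0.18 to 0.19, with an adjusted p-value of 0.0453 by the Wald test of DESeq2; neither was called in any fit. The log2 difference between genotypes in the ratio of sod1 to cat reversed to -0.01 without sibling replicate 2 and ran up to 0.103 when another library was left out, and both differences with duox stayed above 0 (0.627 to 1.028 for sod1, 0.719 to 1.018 for cat). The count of genes past the threshold, 296 by edgeR, was 885 by the Wald test of DESeq2, 1032 at an adjusted p-value of 0.05 alone, and between 109 and 622 when a library was left out. The cause of these differences was not tested.

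Replicates of the same number did not deviate together (correlations of -0.141, -0.14 and 0.091), so the numbers were not read as pairs. With the replicate block 202 genes passed, and no call among the 3 genes changed (duox 1.06, sod1 0.24, cat 0.18). Within pairs the mean ratio differences were 0.803 (duox to sod1), 0.864 (duox to cat) and 0.062 (sod1 to cat). These equal the differences of the group means by arithmetic, so the pairing is no check of them. Of the pathway genes, 5 were higher at 0.05 with the block (1.21% of all tested genes), 13 by DESeq2 (2.66%) and 12 in the robust fit (2.65%), against 8 as reported (1.94%), and 1 was lower by DESeq2 (2.72%) and 2 in the robust fit (2.61%).

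Of duox, sod1 and cat, duox had the fewest reads, with 58 in the smallest library. Several pathway genes had fewer there, among them DUOXA1 (3 reads), NOX5 (13), slc5a5 (15) and noxa1 (23). With 3 pools per genotype, a p-value above the threshold for sod1 and cat does not show that their levels are alike.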
